A study of Rattus norvegicus with 9 samples.

Results

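Cell cycle and DNA replication genes were examined in cultured rat pancreatic stellate cells as a module of 49 named genes that covers cyclins, cyclin-dependent kinases and their inhibitors, replication factors and the machinery of mitosis. A member was taken from the array by its symbol, using entries annotated with exactly 1 symbol and, where a gene had several such entries, the one with the highest mean. This gave values for 43 of the 49 members among 14506 genes in all. Mki67, the proliferation antigen, the helicase subunit genes Mcm3 and Mcm4, the kinetochore genes Cenpe and Cenpf, and Anln, an actin-binding gene of cytokinesis, had no such entry and are not analysed here. The 43 measured members had means between 5.91 and 10.97 on the log2 scale over the 9 arrays, so every one lay above 4.25, the 40th percentile of all genes tested.

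Pancreatic stellate cells are the fibroblast-like, matrix-producing cells of the pancreas. Cells of male Sprague Dawley rats, obtained with a Nycodenz density gradient, were grown for 72 h in medium with 10% serum in 10 cm dishes. The surface was Matrigel, a basement membrane extract (2 arrays), collagen I, the fibrillar collagen of scars (3 arrays), or uncoated plastic (4 arrays). Each pair of surfaces was compared. A letter in each sample title, whose meaning the labels do not give, recurs across surfaces: Matrigel has A and S, collagen has A, P and Z, and plastic has A, P, S and Z. Nothing says whether arrays came from separate animals or cultures, so the p-values below rest on a spread that may be partly or wholly technical.

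Of 14 stellate cell and fibroblast markers, 12 had means above 4.25, with Gfap and Lrat below it. Their list mean lay between 8.74 and 9.16 on Matrigel, between 9.23 and 9.57 on collagen and between 9.52 and 9.83 on plastic. Of 16 macrophage markers 15 had means above 4.25. At an adjusted p under 0.05 by limma, 8 of 12 islet, 4 of 12 acinar and 2 of 16 macrophage markers were higher on Matrigel than on plastic, and 4 of 14 stellate cell markers were lower. Of all genes 4.52% were higher and 5.85% lower. The median log2 differences of these lists were 1.97 (islet), 0.57 (acinar), 1.07 (macrophage) and -0.41 (stellate cell). Marker transcripts of other cell types were thus measured too. In bulk RNA a smaller share of dividing cells and less transcript per cell cannot be told apart.

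Entry into the cell cycle is controlled by D-type cyclins, which activate their kinase partners to inactivate the retinoblastoma protein and free E2F factors. E2F factors turn on cyclin E and the replication genes in G1 and S phase, and a later wave of mitotic genes is turned on by the MuvB complex with B-Myb and FoxM1, which acts through promoter elements named CHR. Stellate cells rest in the healthy pancreas and divide once they are activated by injury or by culture on plastic.

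The promoters of Cdk1, Ccnb2 and Mcm2 below are shown because their windows hold letters of CHR or E2F elements. That of Ccnd3, which passed the test against plastic on both matrices, is set beside them. Cdk1, Ccnb2 and Mcm2 did not pass in any comparison, which does not show them to be equal between surfaces. The windows of Cdkn1a and Rrm1, which passed only between Matrigel and plastic, are not shown. RefSeq windows of 300 bases (250 before and 50 after the gene start, build GRCr8) were matched by gene identifier for 32 of the 43 members. No window was held for Aurkb, Ccna2, Ccnd1, Ccnd2, Ccne2, Cdc6, E2f1, Foxm1, Rrm2, Tpx2 and Ube2c. Capitals mark the letters searched on both strands: TTTGAA for the CHR element, CCAAT for the CCAAT box, and TTTGGCGC, TTTCCCGC, TTTCGCGC or TTTGCCGC for an E2F element, where matches on opposite strands may overlap.
Cdk1 promoter, chr20:19265043-19265342, plus strand: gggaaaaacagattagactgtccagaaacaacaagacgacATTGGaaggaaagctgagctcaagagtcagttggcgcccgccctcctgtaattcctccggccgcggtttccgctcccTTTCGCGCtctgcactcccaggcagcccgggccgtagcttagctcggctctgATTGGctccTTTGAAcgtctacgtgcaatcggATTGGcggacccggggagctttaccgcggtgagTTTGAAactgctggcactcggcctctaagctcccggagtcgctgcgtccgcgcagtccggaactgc
Ccnb2 promoter, chr8:79981609-79981908, minus strand: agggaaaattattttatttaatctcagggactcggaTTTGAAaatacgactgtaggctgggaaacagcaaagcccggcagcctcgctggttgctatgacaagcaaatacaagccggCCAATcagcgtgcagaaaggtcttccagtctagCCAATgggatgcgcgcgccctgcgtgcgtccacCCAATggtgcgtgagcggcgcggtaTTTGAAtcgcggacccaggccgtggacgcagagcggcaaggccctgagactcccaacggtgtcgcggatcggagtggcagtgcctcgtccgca
Mcm2 promoter, chr4:122918045-122918344, minus strand: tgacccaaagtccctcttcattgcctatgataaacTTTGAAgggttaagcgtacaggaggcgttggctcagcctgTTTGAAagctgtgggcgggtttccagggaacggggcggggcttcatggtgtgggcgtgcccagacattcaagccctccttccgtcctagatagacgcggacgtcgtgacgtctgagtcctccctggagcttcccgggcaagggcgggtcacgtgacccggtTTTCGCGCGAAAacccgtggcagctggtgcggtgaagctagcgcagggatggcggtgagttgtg
Ccnd3 promoter, chr9:20897826-20898125, minus strand: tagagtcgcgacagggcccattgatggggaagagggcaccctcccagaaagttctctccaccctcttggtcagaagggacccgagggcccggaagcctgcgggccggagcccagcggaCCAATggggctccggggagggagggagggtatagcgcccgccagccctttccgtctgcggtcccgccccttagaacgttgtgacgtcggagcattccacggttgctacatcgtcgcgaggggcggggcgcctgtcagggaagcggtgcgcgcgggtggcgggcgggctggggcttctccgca

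The Cdk1 window held all 3 kinds of element, that of Ccnb2 held 2 CHR and 3 CCAAT matches, that of Mcm2 held 2 CHR matches and 2 overlapping E2F matches, and that of Ccnd3 held only 1 CCAAT match. Among the 32 windows, 13 held TTTGAA (40.6%, against 18.1% of 27457 windows of all genes), 22 held CCAAT (68.8% against 37.7%) and 7 held an E2F element (21.9% against 2.25%). The 10 members with both CHR and CCAAT letters were Birc5, Ccnb2, Cdc20, Cdk1, Ect2, Nusap1, Plk1, Prc1, Top2a and Ttk. The 7 with E2F letters were Cdk1, Cdt1, Mcm2, Mcm5, Mcm6, Mcm7 and Tyms. A match describes these letters in this window and no binding was measured.

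Between Matrigel and plastic most replication and mitosis genes did not pass the test, and the genes that did were a pair of D-type cyclins, a kinase inhibitor and the subunits of ribonucleotide reductase. Of 43 members, 5 passed at an adjusted p under 0.05 by limma, which is 11.6% against 10.4% of all 14506 genes, a share near the background. The 2 that rose were Ccnd1 and Cdkn1a, where 4.52% of all genes rose, and the 3 that fell were Ccnd3, Rrm1 and Rrm2, where 5.85% fell. The median difference of the members was -0.18 log2, against -0.01 over all genes.

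Ccnd1 (Entrez gene 58919), which encodes cyclin D1 and responds to growth factors and adhesion, stood at 10.57 (letter A) and 9.88 (S) on Matrigel, against 8.26 (A), 8.56 (P), 7.72 (S) and 9.01 (Z) on plastic. On collagen it stood at 10.47 (A), 10.22 (P) and 10.66 (Z). Every array on either matrix lay above every plastic array, whereas Matrigel and collagen overlapped. Ccnd1 was 3.57-fold higher on Matrigel than on plastic (log2 difference 1.84 ± 0.33 SE, adjusted p = 0.0103) and 4.17-fold higher on collagen than on plastic (2.06 ± 0.29 SE, adjusted p = 0.00438). The difference between Matrigel and collagen was -0.22, with a 95% interval from -1.02 to 0.57 (adjusted p = 0.810). Without the Matrigel array of letter A the difference from plastic was 1.49 and did not pass (adjusted p = 0.0911), while the other arrays left out in turn gave adjusted p from 0.00864.

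Ccnd3 (Entrez gene 25193), the gene of cyclin D3, went the other way and varied least of all members within collagen and within plastic. It stood at 7.91 (A) and 7.77 (S) on Matrigel, at 7.95 (A), 8.01 (P) and 7.96 (Z) on collagen, and at 8.31 (A), 8.35 (P), 8.37 (S) and 8.35 (Z) on plastic. Matrigel arrays were lowest, collagen arrays next and plastic arrays highest, with no overlap. The fall was 1.42-fold on Matrigel (-0.50 ± 0.07 SE, adjusted p = 0.00275) and 1.29-fold on collagen (-0.37 ± 0.06 SE, adjusted p = 0.00746), and the difference between the matrices did not pass (adjusted p = 0.377).

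The third D-type cyclin gene, Ccnd2, had 7.94 (A) and 8.33 (S) on Matrigel, 7.64 (A), 8.03 (P) and 7.84 (Z) on collagen, and 7.43 (A), 7.44 (P), 7.81 (S) and 7.14 (Z) on plastic. Both Matrigel arrays lay above all plastic arrays, but the difference of 0.68 ± 0.19 SE did not pass (adjusted p = 0.0603). On collagen it differed from plastic by 0.38 ± 0.17 SE (adjusted p = 0.271). Of the other genes of G1 control, none of Cdk4 and Cdk2, which encode the partners of cyclins D and E, and the cyclin E genes Ccne1 and Ccne2 passed in any comparison, and their differences lay between -0.34 and 0.19. With the title letter as a block Ccne2 was lower on collagen than on plastic (-0.35, adjusted p = 0.0495), and Cdk2 was higher on Matrigel than on plastic (0.41, adjusted p = 0.0440). Ccne1, for example, read 7.29 and 6.87 on Matrigel (A, S), 7.14, 7.04 and 7.25 on collagen (A, P, Z), and 7.09, 7.02, 6.64 and 7.43 on plastic (A, P, S, Z).

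**Figure D1:**
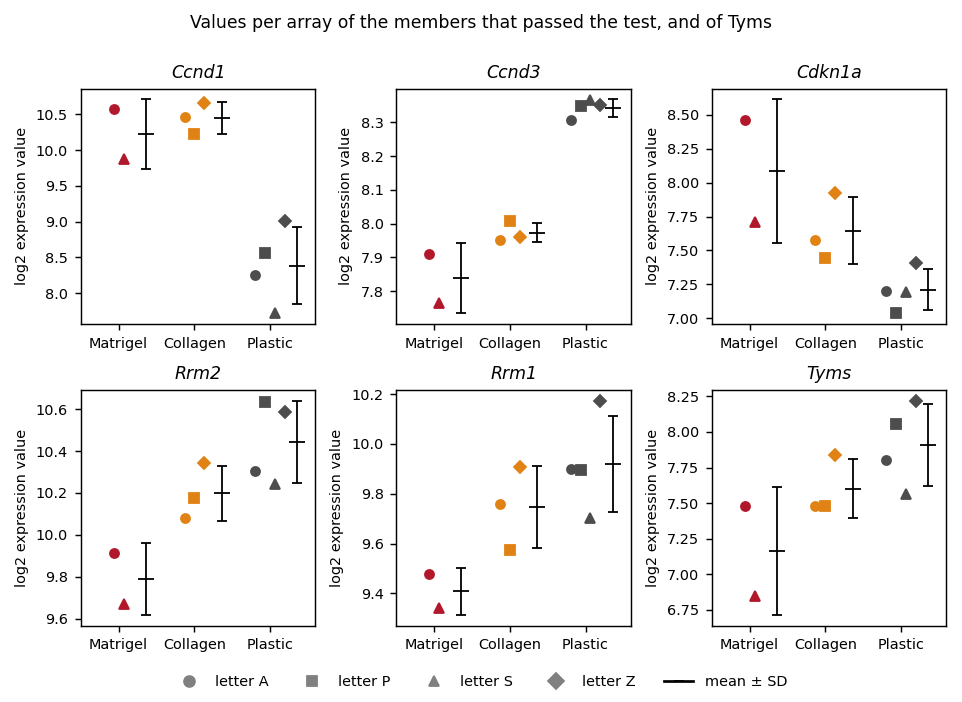
Log2 expression values of Ccnd1, Ccnd3, Cdkn1a, Rrm2, Rrm1 and Tyms in each array, by surface, with the mean and SD of each surface (2 Matrigel, 3 collagen and 4 plastic arrays) and the title letter as the symbol; each panel has its own axis, which does not start at 0. All Ccnd1 values on Matrigel and collagen (9.88 to 10.66) lie above those on plastic (7.72 to 9.01), and those of Ccnd3 lie below (7.77 to 8.01 against 8.31 to 8.37).

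Cdkn1a (Entrez gene 114851), the gene of the p21 inhibitor that arrests cells in G1 and that also helps to assemble cyclin D complexes, was 1.84-fold higher on Matrigel than on plastic. Its values were 8.46 (A) and 7.71 (S) on Matrigel, 7.57 (A), 7.44 (P) and 7.92 (Z) on collagen, and 7.20 (A), 7.04 (P), 7.20 (S) and 7.41 (Z) on plastic. All arrays on either matrix lay above all plastic arrays, and the Matrigel array of letter A stood highest. The difference was 0.88 ± 0.21 SE for Matrigel (adjusted p = 0.0332) and 0.44 ± 0.19 SE for collagen (adjusted p = 0.248). The Matrigel call was lost without the Matrigel array of letter A, where the difference was 0.50, without the collagen array of letter A, and without any 1 of the plastic arrays (adjusted p from 0.0501 to 0.201). Cdkn1b, the gene of the related inhibitor p27, read 7.98 and 8.01 on Matrigel (A, S), 7.98, 8.01 and 7.84 on collagen (A, P, Z), and 8.10, 8.20, 8.01 and 8.12 on plastic (A, P, S, Z). It did not pass in any comparison, with differences of -0.11 for Matrigel and -0.16 for collagen against plastic.

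The 3 genes of deoxynucleotide supply were each lower on Matrigel than on plastic in every array. Rrm2 (Entrez gene 362720), the regulated subunit of ribonucleotide reductase, had 9.91 (A) and 9.67 (S) on Matrigel, 10.08 (A), 10.17 (P) and 10.34 (Z) on collagen, and 10.31 (A), 10.64 (P), 10.24 (S) and 10.58 (Z) on plastic. Rrm1 (Entrez gene 685579), the large subunit, had 9.48 (A) and 9.34 (S) on Matrigel, 9.76 (A), 9.57 (P) and 9.91 (Z) on collagen, and 9.90 (A), 9.89 (P), 9.70 (S) and 10.17 (Z) on plastic. Tyms, the thymidylate synthase gene, had 7.48 (A) and 6.85 (S) on Matrigel, 7.48 (A), 7.48 (P) and 7.84 (Z) on collagen, and 7.80 (A), 8.06 (P), 7.56 (S) and 8.22 (Z) on plastic. For all 3 genes the collagen arrays overlapped those on plastic.

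Rrm2 fell 1.57-fold on Matrigel (-0.65 ± 0.14 SE, adjusted p = 0.0194) and Rrm1 fell 1.42-fold (-0.51 ± 0.14 SE, adjusted p = 0.0489), whereas Tyms differed by -0.75 ± 0.22 SE and did not pass (adjusted p = 0.0737). The Rrm2 call was lost without either Matrigel array or without the plastic array of letter Z (adjusted p from 0.0502 to 0.118), and that of Rrm1 without any array except the plastic array of letter S (adjusted p from 0.0516 to 0.203). A second entry of Rrm2 differed by -0.64, close to the first, while a second entry of Rrm1 averaged only 2.31 and differed by -0.28. Entries that share an accession can also read near-identical copies of a gene. On collagen the 3 genes differed from plastic by -0.24 for Rrm2, -0.17 for Rrm1 and -0.31 for Tyms, none past the threshold. With the title letter as a block Tyms passed, at -0.45 on collagen (adjusted p = 0.0461) and at -0.53 on Matrigel (adjusted p = 0.0405).

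The transcription factor genes of both waves did not pass in any comparison. E2f1 read 6.24 and 5.62 on Matrigel (A, S), 6.20, 5.95 and 6.03 on collagen (A, P, Z), and 5.70, 5.95, 5.64 and 5.85 on plastic (A, P, S, Z). Foxm1 read 7.13 and 6.90 on Matrigel, 7.26, 7.05 and 7.21 on collagen, and 6.95, 7.18, 6.64 and 7.11 on plastic, in the same letter order. The Matrigel arrays overlapped the plastic arrays for both genes, while the lowest collagen array of E2f1 equalled its highest plastic array. The differences from plastic were 0.14 and 0.04 on Matrigel and 0.28 and 0.20 on collagen for E2f1 and Foxm1.

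Of the 7 measured genes of origin licensing and the replication fork, none passed in any comparison. Of all genes 10.4% passed between Matrigel and plastic, 6.12% between collagen and plastic and 2.67% between Matrigel and collagen. At those shares a group this small can hold no call. Mcm2, a subunit of the replicative helicase, had 8.57 (A) and 8.0 (S) on Matrigel, 8.64 (A), 8.52 (P) and 8.67 (Z) on collagen, and 8.49 (A), 8.50 (P), 8.13 (S) and 8.49 (Z) on plastic. Pcna, the sliding clamp of DNA polymerases, had 8.65 (A) and 8.19 (S) on Matrigel, 8.48 (A), 8.39 (P) and 8.68 (Z) on collagen, and 8.32 (A), 8.17 (P), 8.18 (S) and 8.36 (Z) on plastic. Collagen arrays lay just above all plastic arrays for both genes, by a mean of 0.20 for Mcm2 (95% interval -0.13 to 0.53) and 0.26 for Pcna (-0.02 to 0.53). The loading factors Cdc6 and Cdt1 and the helicase subunits Mcm5, Mcm6 and Mcm7 differed from plastic by between -0.33 and 0.18 on Matrigel and between 0.02 and 0.29 on collagen.

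Of 8 mitotic cyclin and kinase genes none passed in any comparison. The shares of all genes were 10.4% (Matrigel against plastic), 6.12% (collagen against plastic) and 2.67% (Matrigel against collagen), so this group is too small to differ clearly from them. Cdk1, the kinase that starts mitosis, stood at 7.35 (A) and 7.16 (S) on Matrigel, 7.43 (A), 7.44 (P) and 7.80 (Z) on collagen, and 7.41 (A), 7.71 (P), 7.12 (S) and 7.54 (Z) on plastic. Its cyclin partner gene Ccnb1 stood at 8.75 (A) and 8.19 (S) on Matrigel, 8.66 (A), 8.66 (P) and 8.93 (Z) on collagen, and 8.79 (A), 8.95 (P), 8.04 (S) and 8.93 (Z) on plastic. Ccna2, the cyclin of S phase and G2, stood at 7.38 (A) and 6.92 (S) on Matrigel, 7.24 (A), 7.35 (P) and 7.76 (Z) on collagen, and 7.38 (A), 7.65 (P), 6.89 (S) and 7.63 (Z) on plastic. In each of these genes the arrays of letter S were the lowest of their surface, and the Matrigel arrays overlapped those on plastic. The differences from plastic were -0.19, -0.20 and -0.24 on Matrigel and 0.11, 0.07 and 0.06 on collagen for Cdk1, Ccnb1 and Ccna2.

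Cdc25b, a phosphatase gene that activates Cdk1, read 8.35 and 7.81 on Matrigel (A, S), 7.92, 7.83 and 8.29 on collagen (A, P, Z), and 7.51, 7.83, 7.23 and 7.82 on plastic (A, P, S, Z). Its differences from plastic, 0.48 on Matrigel and 0.42 on collagen, did not pass (adjusted p = 0.229 and 0.292). Aurkb, the kinase gene of the chromosomal passenger complex, read 7.85 and 7.16 on Matrigel, 8.06, 7.81 and 8.0 on collagen, and 7.83, 7.83, 7.43 and 7.85 on plastic, in the same letter order. It differed from plastic by -0.22 on Matrigel and 0.22 on collagen, and neither passed. Ccnb2, Plk1 and Aurka differed by between -0.24 and 0.03 on Matrigel and by between -0.06 and 0.14 on collagen.

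Chromosome, spindle and cytokinesis genes gave the same picture, with 0 of 14 past the threshold in any comparison across chromosome and spindle proteins (5), spindle checkpoint and anaphase promotion (6) and cytokinesis (3). Against the shares of all genes, 10.4% (Matrigel against plastic), 6.12% (collagen against plastic) and 2.67% (Matrigel against collagen), 0 of 14 does not set these genes apart. Top2a, the topoisomerase that untangles replicated chromosomes, had 9.05 (A) and 8.69 (S) on Matrigel, 9.12 (A), 9.08 (P) and 9.30 (Z) on collagen, and 8.95 (A), 9.07 (P), 8.62 (S) and 9.15 (Z) on plastic. It differed from plastic by -0.07 on Matrigel (95% interval -0.44 to 0.29) and by 0.22 on collagen (-0.10 to 0.54). Prc1, a microtubule bundler of the central spindle, had 8.26 (A) and 7.86 (S) on Matrigel, 8.43 (A), 8.35 (P) and 8.71 (Z) on collagen, and 8.66 (A), 8.89 (P), 8.26 (S) and 8.90 (Z) on plastic. The 2 Matrigel arrays of Prc1 lay below all plastic arrays, by so little for letter A that the values agree to 2 decimals with plastic letter S, and the difference of -0.62 ± 0.20 SE did not pass (adjusted p = 0.0949).

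Kif11, the motor that separates spindle poles, had 6.21 (A) and 6.0 (S) on Matrigel, 6.57 (A), 6.53 (P) and 6.66 (Z) on collagen, and 6.43 (A), 6.46 (P), 6.11 (S) and 6.69 (Z) on plastic. Nusap1, a spindle microtubule protein gene, had 5.75 (A) and 5.94 (S) on Matrigel, 6.10 (A), 6.21 (P) and 6.10 (Z) on collagen, and 6.10 (A), 6.47 (P), 6.10 (S) and 5.87 (Z) on plastic. Both were lower on Matrigel than on every collagen array, and neither passed (adjusted p = 0.152 and 0.392 for Kif11 and Nusap1 between Matrigel and collagen). The same lack of overlap held for Bub1, Ccnd3, Cdk1, Prc1, Rrm1, Rrm2 and Top2a, and its share over all genes was not counted. The checkpoint kinase genes Bub1, Bub1b and Ttk, the checkpoint gene Mad2l1 and the anaphase-promoting genes Cdc20 and Ube2c differed from plastic by between -0.33 and 0.18 on Matrigel and by between -0.11 and 0.29 on collagen.

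**Figure D2:**
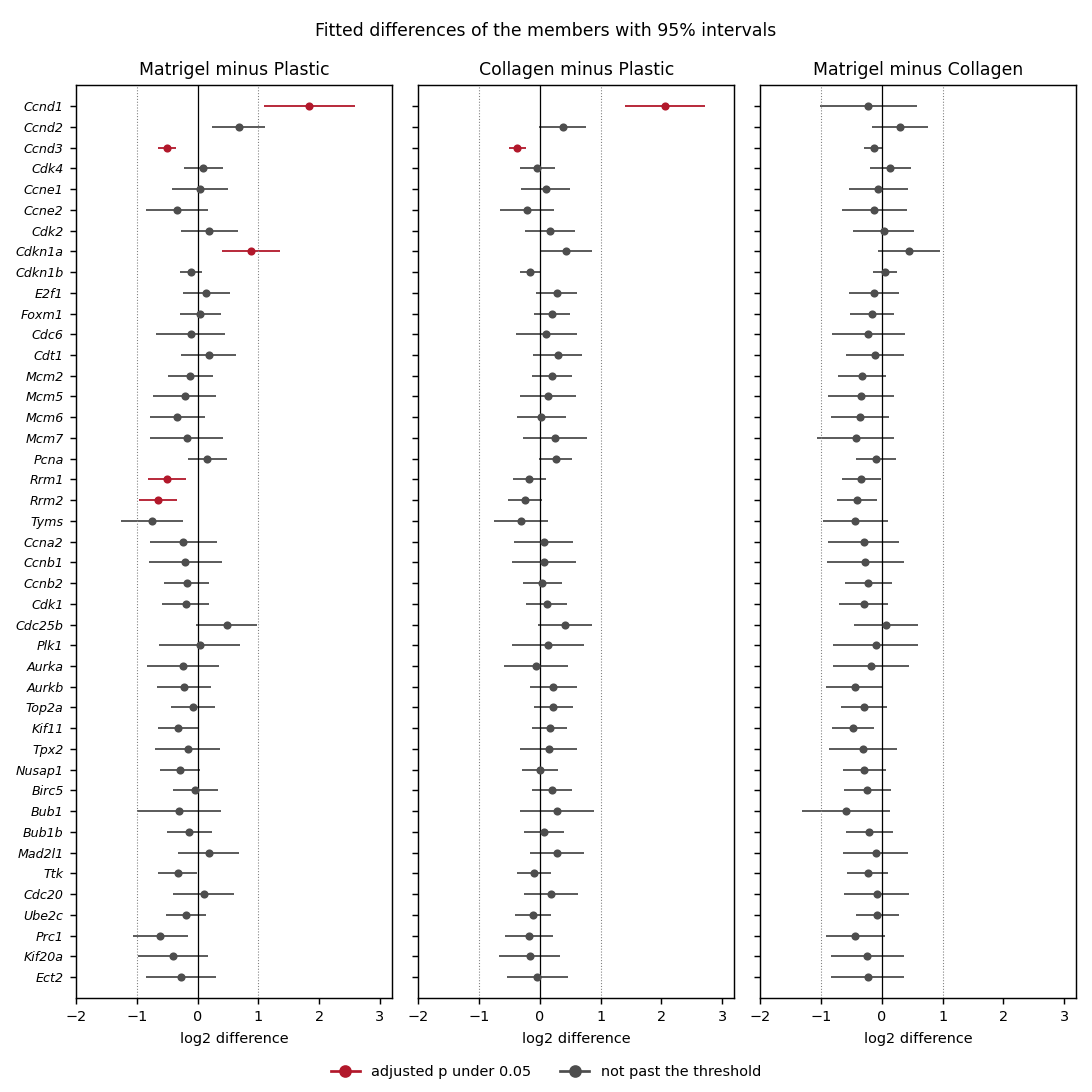
Fitted log2 differences of the 43 measured members with 95% intervals, for Matrigel minus plastic, collagen minus plastic and Matrigel minus collagen, where dotted lines mark -1 and 1 and red marks an adjusted p under 0.05. On Matrigel against plastic 5 members are red, on collagen against plastic Ccnd1 and Ccnd3, and between the matrices none.

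Between collagen and plastic, the members that passed were Ccnd1 and Ccnd3, while the third D-type cyclin gene, Ccnd2, did not pass. Ccnd1 rose and Ccnd3 fell, which is 2 of 43 members (4.65%) against 6.12% of all genes, of which 2.95% rose and 3.17% fell. The other 41 members did not pass, and the median difference of the members was 0.11 log2 against 0.00 over all genes. With the title letter as a block, which these arrays allow as pairs, 4 members passed: Ccnd1 was higher by 1.84 and Ccnd3 (-0.38), Tyms and the cyclin E gene Ccne2 were lower, against 7.39% of all genes that passed with the block. Between Matrigel and collagen 0 members passed by limma, against 2.67% of all genes (1.21% higher and 1.45% lower). At an unadjusted p under 0.05 there were 3 of 43 members and 2456 of 14506 genes, and the median difference of the members was -0.22 against -0.02 over all genes. Only letter A is on both matrices, and within it the median difference of the members was 0.00172.

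A member that did not pass is not thereby shown to be equal on both surfaces. The 95% interval lay wholly inside -1 to 1 log2, which is within 2-fold, for 37 of 43 members between Matrigel and plastic, 42 between collagen and plastic and 40 between Matrigel and collagen. Within -0.5 to 0.5 it lay for only 8, 11 and 5 members. The median distance from a member's difference to the end of its interval was 0.45 for Matrigel against plastic, compared with 0.26 over all genes. These intervals are not adjusted for the number of genes, so a call needed a difference beyond that distance. Between Matrigel and plastic Tyms at -0.75, Ccnd2 at 0.68 and Prc1 at -0.62 did not pass, while Rrm1 at -0.51 and Ccnd3 at -0.50 did.

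The members varied more between arrays of 1 surface than most genes did. Their median SD was 0.33 on Matrigel (n = 2), 0.15 on collagen (n = 3) and 0.27 on plastic (n = 4), against 0.10, 0.11 and 0.12 over all genes in that order of surfaces, and 0.12, 0.11 and 0.13 over the 8703 genes above the 40th percentile. On plastic the SD ran from 0.03 for Ccnd3 to 0.54 for Ccnd1, and on Matrigel from 0.03 for Cdkn1b to 0.60 for Bub1.

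Part of this spread was shared by arrays of letter S and by arrays of letter Z on different surfaces. The plastic array of letter S was the lowest of the 4 plastic arrays in 36 of 43 members, against 31.1% of all genes. The Matrigel array of letter S was below that of letter A in 40 of 43 members, against 49% of all genes. On collagen, which has no array of letter S, the array of letter Z was the highest in 33 of 43 members, against 32.6% of all genes. On plastic the array of letter Z was the highest in 25 of 43 members, against 25.8% of all genes. The array of letter P lay below its surface mean in 37 of 43 members on collagen (51.1% of all genes) and in 10 on plastic (49.8%). That of letter A lay below it in 3 members on Matrigel (44.6%), in 29 on collagen (46.7%) and in 27 on plastic (48.7%). Each surface mean depends on the letters present on that surface, so these counts do not compare a letter across surfaces.

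**Figure D3:**
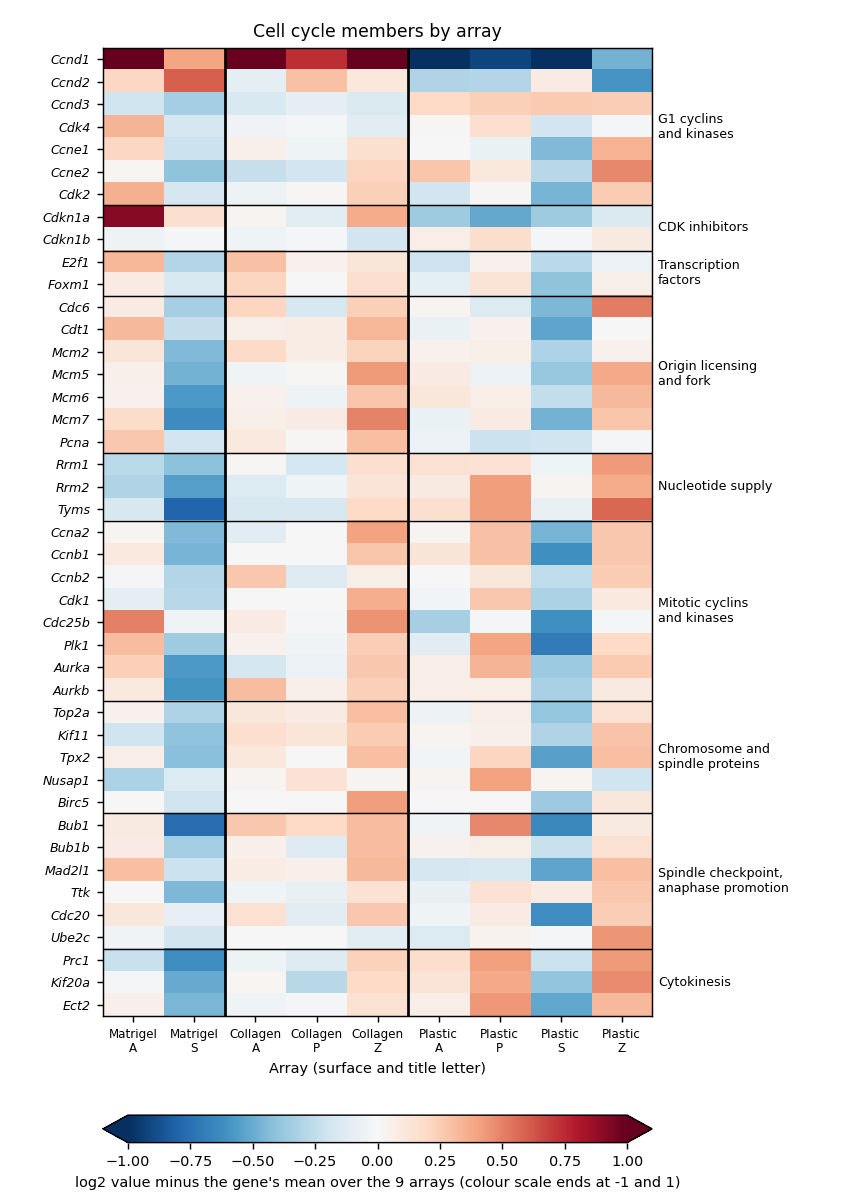
Log2 values of the 43 measured members, ordered by role, in each of the 9 arrays, shown as the difference from the gene's own mean over the 9 arrays (red higher, blue lower; the colour scale ends at -1 and 1). The columns of letter S on Matrigel and on plastic are blue for most replication and mitosis genes, whereas Ccnd3 changes by surface and Ccnd1 by both surface and letter.

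Relative to each gene's mean over the 9 arrays, the median member stood at 0.08 (A) and -0.34 (S) on Matrigel, at 0.03 (A), 0.00 (P) and 0.24 (Z) on collagen, and at 0.01 (A), 0.09 (P), -0.35 (S) and 0.25 (Z) on plastic. Arrays that share a letter thus stood close to each other on different surfaces. Those of letters S and Z lay away from 0, and those of letters A and P lay between 0.00 and 0.09. The median over all genes lay between -0.01 and 0.01 on every array.

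The pattern ran through most roles. The share of all genes lowest in letter S on both surfaces was not counted. On 1 surface it was 31.1% on plastic and 49% on Matrigel. All 8 mitotic cyclin and kinase genes, all 3 cytokinesis genes and all 3 nucleotide supply genes were lowest in the letter S array on both Matrigel and plastic. So were 6 of 7 licensing and fork genes, 5 of 7 G1 cyclin and kinase genes and 4 of 5 chromosome and spindle genes. The remaining roles gave 2 of 2 transcription factor genes, 4 of 6 spindle checkpoint and anaphase promotion genes and 0 of 2 kinase inhibitor genes. The plastic array of letter S lay below the mean of the other plastic arrays by a median of 0.44 over the members (the signed median is -0.44), and the Matrigel array of letter S differed from that of letter A by a median of -0.47. Bub1, a spindle checkpoint kinase gene, showed one of the widest gaps, with 7.13 (A) and 6.28 (S) on Matrigel and 7.01 (A), 7.52 (P), 6.40 (S) and 7.13 (Z) on plastic. Plk1, a kinase gene of mitotic entry, was similar at 8.80 (A) and 8.14 (S) on Matrigel and 8.39 (A), 8.89 (P), 7.79 (S) and 8.69 (Z) on plastic. Ccnd1, which differed by surface, also shared the letter S pattern. Its plastic array of letter S differed from the mean of the other plastic arrays by -0.89, and its Matrigel array of letter S from that of letter A by -0.69.

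Ccnd2 ran opposite to the rest, since its letter S arrays were the highest of both surfaces (8.33 on Matrigel and 7.81 on plastic). Cdkn1b was higher in the letter S array on Matrigel (by 0.04), as was Nusap1 (by 0.18), and Cdkn1a, Ccnd3, Pcna, Ttk, Ube2c and Nusap1 were not lowest in the letter S array on plastic. By promoter letters, the letter S array was lowest on both surfaces for 8 of the 10 members with both CHR and CCAAT, for 7 of the 7 with E2F, and for 4 of the 5 whose window held none of the letters searched. No test was made between these sets, and the share of all genes lowest in letter S on both surfaces was not counted.

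**Figure D4:**
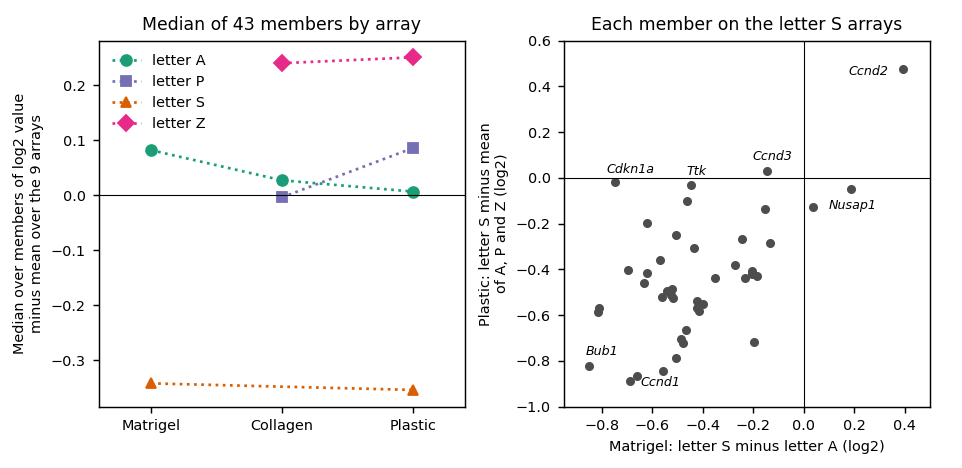
Left, the median over the 43 measured members of the log2 value minus the gene's mean over the 9 arrays, for each array, with dotted lines joining arrays of the same title letter: both arrays of letter S lie near -0.35 and both of letter Z near 0.25. Right, for each member, the Matrigel array of letter S minus that of letter A (horizontal) against the plastic array of letter S minus the mean of the other 3 plastic arrays (vertical), both log2: 40 of 43 members lie left of 0, and Ccnd2 lies above 0 on both axes.

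Arrays of the same letter were also set against each other. For Matrigel minus plastic the median difference of the members was 0.07 within letter A, with 25 members higher and 16 lower, and 0 within letter S, with 21 higher and 21 lower. For collagen minus plastic it was 0.12 within A, with 26 higher and 15 lower, -0.18 within P, with 12 higher and 27 lower, and 0.02 within Z, with 24 higher and 19 lower. For Matrigel minus collagen it was 0.00172 within A, the only shared letter, with 22 higher and 20 lower. The median of -0.22 between their full groups includes the letters that only 1 of these surfaces has. The median of -0.18 between the full groups of Matrigel and plastic arrays includes plastic arrays of letters P and Z, which Matrigel lacks, and without both arrays of letter S, a choice made after seeing the data, it was -0.05.

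Within letters the sizes were as follows, with signs fixed in advance where the surfaces do not overlap. Ccnd1 was higher on Matrigel than on plastic by 2.31 within A and 2.16 within S, and higher on collagen than on plastic by 2.21 within A, 1.65 within P and 1.65 within Z. Ccnd3 differed by -0.39 (A) and -0.60 (S) on Matrigel and by -0.35 (A), -0.34 (P) and -0.39 (Z) on collagen. On Matrigel Cdkn1a differed by 1.26 (A) and 0.52 (S), Rrm2 by -0.40 and -0.57, Rrm1 by -0.42 and -0.36, and Tyms by -0.32 and -0.72.

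Markers of other cells also varied with surface and letter. The macrophage list mean was 7.80 (A) and 8.11 (S) on Matrigel, 6.38 (A), 6.48 (P) and 7.41 (Z) on collagen, and 7.23 (A), 6.42 (P), 7.58 (S) and 6.52 (Z) on plastic. Its highest arrays within Matrigel and within plastic were those of letter S, where most members were lowest, while on collagen its highest array was that of letter Z, where most members were highest. The stellate cell list mean was also highest on plastic in letter S (9.83), and the islet list mean was 7.61 (A) and 6.48 (S) on Matrigel against 5.97 (A), 5.31 (P), 5.47 (S) and 5.06 (Z) on plastic. Of the macrophage markers 15 of 16, and of the islet markers 7 of 12, had means above 4.25. The part of these cells in the values of the members was not tested.

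Cell cycle genes outside the module are counted against the same shares of all genes, 10.4% past the threshold between Matrigel and plastic and 6.12% between collagen and plastic. Of 38 measured replication genes, 1 fell on Matrigel and 1 rose on collagen relative to plastic, and of 44 mitosis genes 0 passed on Matrigel and 1 fell on collagen. Of 11 E2F, retinoblastoma and MuvB complex genes 1 fell on Matrigel and 0 passed on collagen. The plastic array of letter S was the lowest in 29 of the 38 replication genes and 41 of the 44 mitosis genes, and the Matrigel array of letter S was below that of A in 35 and 42 of them. Among 19 other genes of G1 control, kinase inhibition and the p53 response the plastic array of letter S was the lowest in 6, near the share of all genes, and the highest in 4, and the Matrigel array of letter S was below that of A in 12.

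Among those that passed, Tfdp2, which encodes a partner of E2F factors, had 5.58 and 5.60 on Matrigel (A, S), 6.06, 6.24 and 5.95 on collagen (A, P, Z), and 6.98, 6.50, 6.56 and 6.42 on plastic (A, P, S, Z). It fell by 1.02 on Matrigel (adjusted p = 0.00449) and differed by -0.53 on collagen (adjusted p = 0.0551). Zwint, a kinetochore gene, fell by 0.48 on collagen (adjusted p = 0.00575). The maintenance methyltransferase gene Dnmt1 rose by 0.61 on collagen (adjusted p = 0.0410) and Gins3, a subunit gene of the replicative helicase, fell by 0.32 on Matrigel (adjusted p = 0.0416). The Dnmt1 call was lost without the collagen array of letter A or Z or the plastic array of letter A, P or S (adjusted p from 0.0839 to 0.138), and that of Gins3 without any array except the collagen array of letter Z (adjusted p from 0.0580 to 0.196).

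Of these 19 genes, 2 rose and 2 fell on Matrigel, where 10.4% of all genes passed, and 2 rose and 1 fell on collagen, where 6.12% passed, relative to plastic. Btg1, an antiproliferative gene, had 10.52 and 10.89 on Matrigel (A, S), 10.57, 10.34 and 10.20 on collagen (A, P, Z), and 9.29, 9.21, 9.52 and 9.46 on plastic (A, P, S, Z). It rose 2.53-fold on Matrigel (adjusted p = 0.00123) and 2.0-fold on collagen (adjusted p = 0.00268), with no overlap between either matrix and plastic. Plk3, a stress-responsive kinase gene, rose by 0.99 on Matrigel (adjusted p = 0.0113) and 0.95 on collagen (adjusted p = 0.00958), and without the Matrigel array of letter A the first did not pass (adjusted p = 0.0804).

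Ccng2, a cyclin gene of resting cells, had 7.92 and 7.86 on Matrigel (A, S), 7.18, 7.28 and 7.04 on collagen (A, P, Z), and 8.41, 8.22, 8.20 and 8.04 on plastic (A, P, S, Z). It fell 2.07-fold on collagen (adjusted p = 0.000578), differed by -0.33 on Matrigel (adjusted p = 0.0994), and was higher on Matrigel than on collagen by 0.72 (adjusted p = 0.0192). This last call was lost without either Matrigel array or without the collagen array of letter P or Z (adjusted p from 0.0508 to 0.0806). Plk2, another stress-responsive kinase gene, fell by 0.67 on Matrigel relative to plastic (adjusted p = 0.0169) and by 0.71 relative to collagen (adjusted p = 0.0431). Its first call was lost without either Matrigel array (adjusted p = 0.0516 and 0.102) and its second without any array except the collagen array of letter A (adjusted p from 0.0618 to 0.171). Cdkn1c, the gene of the inhibitor p57, which was named after its values were seen, fell by 1.03 on Matrigel relative to plastic (adjusted p = 0.0319). That call was lost without the collagen array of letter A or P, the Matrigel array of letter A or the plastic array of letter A (adjusted p from 0.0536 to 0.214).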

How the data were processed

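Expression was measured on 9 Affymetrix Rat Gene 1.0 ST arrays. The deposited values are log2 expression values made by the authors with RMA, per the submitters' processing notes, a method that corrects background, quantile-normalizes across arrays and summarises probe sets; the software version is not given in the sources used here, nor is a genome build. Nothing was normalized again. Of 29215 entries, 15310 carried exactly 1 gene symbol, 323 several and 13582 none in the array's annotation table; keeping the brightest entry per gene left out 804 and gave 14506 genes. A RefSeq table (GRCr8) held the identifiers of 15279 entries and changed 0 symbols. Values were identical on at least 2 arrays for 8192 genes and for 10 of the 43 measured members.

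The limma package (3.58.1, R 4.3.3) fitted the differences over all 9 arrays (1 mean per surface, 6 residual degrees of freedom), with two-sided moderated tests adjusted by Benjamini-Hochberg over all genes within each comparison; a call is an adjusted p under 0.05. The members, the role groups, the other gene lists and the tests were chosen with earlier results of these data known. Values in every array were given for members that passed, for the 8 with the smallest p in each comparison and for 16 further members, of which Mki67 was not measured; Bub1 and Plk1 were added after their values were seen. Of the other lists up to 3 genes past the threshold were named per comparison. Letter arrays were checked as pairs over all genes, which are not independent replicates: deviations from surface means correlated at r = 0.196 (A), 0.234 (P) and 0.269 (Z) between collagen and plastic, and at -0.131 (A) and 0.406 (S) between Matrigel and plastic. Every same-letter value was over 0.1 for collagen and plastic, so letters were taken as pairs there only. Collagen A nevertheless correlated at 0.243 with plastic S, and the other different-letter pairs of these surfaces lay at or below 0.00913. The deviations of the 2 Matrigel arrays are equal and opposite, so this check could not decide whether letters are pairs between Matrigel and plastic. The letter block on Matrigel is given only as an alternative. The alternatives were median re-centring, a filter at the 40th percentile, the mean of all entries, only the compared surfaces, only shared letters, trend and robust moderation, the letter block, and leaving out each array. The number of arrays limits the precision. The fit was tested on simulated data.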

Additional observations from a re-analysis of the deposited data

Results flagged for a closer look

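For 2 of the 43 measured members, 1 of the 4 plastic arrays stood far from the others, by Dixon's test at the 95% level. Mcm2 was 8.13 in the plastic array of letter S, with the next array at 8.49, and Aurkb was 7.43 in the same array, with the next at 7.83. In both genes 2 of the other plastic arrays held identical values (A and Z for Mcm2, A and P for Aurkb), which narrows their spread. The letter S array differed from the mean of the other plastic arrays by -0.36 for Mcm2 and -0.40 for Aurkb, against a median of -0.44 over the members. Chance alone flags about 1 in 20 groups, and the sets of 3 collagen and 2 Matrigel arrays are too small for this check.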

How the results depend on the processing

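The count of members past the threshold between Matrigel and plastic, 5 as reported, was 2 with only these surfaces in the fit (7.46% of all genes), 2 with only shared letters (4.33%), 9 with the letter as a replicate block (10.4%), and 3 without both arrays of letter S (7.81%), a setting chosen after seeing the data. Leaving out 1 array gave from 1 (without the Matrigel array of letter A, 5.23% of all genes) to 8 (without the plastic array of letter S, 10.1%). It was 2 without the plastic array of letter Z and 3 without the Matrigel array of letter S, the collagen array of letter A or the plastic array of letter A or P. The block added Ccnd2, Cdk2, Cdc25b and Tyms. For collagen against plastic the count was 2 in all settings but the block, which gave 4 (7.39% of all genes), and for Matrigel against collagen it was 0 in all. The median difference between Matrigel and plastic, -0.18, lay between -0.32 and 0.0771 with 1 array left out, and was highest without the Matrigel array of letter S, and that between Matrigel and collagen was 0.0433 with the block. Ccnd3 passed against plastic in every setting on both matrices, and Ccnd1 in every setting on collagen. Cdkn1a did not pass with only the 2 surfaces or only shared letters (adjusted p = 0.0666 and 0.129), nor Rrm2 with these (0.0513 and 0.0925) or without both letter S arrays (0.0829). Rrm1 also did not pass with re-centring or the mean of all entries (0.0635 and 0.0738). Among 1122 differences of the 22 named members 0 called ones turned in sign, and 66 uncalled ones did. Calls over all genes were 1504 between Matrigel and plastic as reported and 628 with only shared letters, and 387 between Matrigel and collagen as reported, 66 with the block and 0 with only these surfaces. Signal over background could not be assessed, since no detection values were used here.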
